A study of Mus musculus with 8 samples.

Results

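Chromatin accessibility was followed at 8 genes of extracellular matrix turnover in mouse alveolar macrophages (AMs), the matrix metalloproteinase genes Mmp8, Mmp9, Mmp12, Mmp13, Mmp14 and Mmp19 and the inhibitor genes Timp2 and Timp3. The genes were chosen by name, with earlier results of these data known. Their regions were all peaks that overlapped a gene body or the 20 kb on either side of it in any of the 8 ATAC-seq libraries, with peaks of different libraries merged where they shared a base. This gave 51 regions of 82424 in the series, and 49 of them were seen in 2 or more libraries. ATAC-seq marks open chromatin by the places where the transposase Tn5 can insert.

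The KO libraries (n = 4, replicates 1_2, 1_3, 2 and 3) came from CD11cCre+ Rxrabfl/fl adult mice, and the WT libraries (n = 4, replicates 1_2, 1_3, 3 and 4) from CD11cCre- Rxrabfl/fl mice. Both groups therefore carried the floxed alleles of Rxra and Rxrb, which encode the nuclear receptors RXRα and RXRβ, and differed in the Cre. Cre was driven by CD11c, which other lung phagocytes than AMs express as well. AMs were sorted from lavage fluid of the lung. The labels leave unstated whether 1 mouse gave both replicates 1_2 and 1_3, so the p-values measure the spread between libraries, which may be partly technical. The comparison asks how accessibility at these genes differed in AMs without RXR.

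Metalloproteinases are zinc enzymes that cut collagen, elastin and other proteins of the matrix, and most are secreted as inactive proenzymes. Tissue inhibitors of metalloproteinases (TIMPs) bind the active site and block it. AMs are a known source of macrophage elastase, the product of Mmp12, in the airspace. RXR forms heterodimers with other nuclear receptors, among them PPARγ, a regulator of AM identity, and these dimers bind repeats of the letters AGGTCA.

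The lists held 60363 to 72484 peaks per library, and their background was 1.12 to 2.26 tags per 200 bp. A tag is 1 read end extended to 200 bp, and the number of tags over a peak's summit was worked back from its fold enrichment and p-value. The smallest summit called in a library held 6 to 9 tags. Of 12 AM marker genes, 10 had a promoter peak in all 8 libraries, among them the defining markers Siglecf, Itgax, Marco, Car4 and Pparg, and Chil3 and Krt79 had one in none. No library had a promoter peak at the 3 T cell markers found in the annotation (Cd3e, Cd3g and Lck) or at the 3 B cell markers, and Trac was not examined. Of 8 neutrophil marker genes, 3 had a promoter peak in all libraries (S100a8, Csf3r and Cxcr2), Ly6g, S100a9, Retnlg and Ltf had none, and Camp had one in KO replicates 1_2 and 1_3 with 20 and 12 tags and in no WT library. The summed scaled tags at the neutrophil marker promoters were 225 to 275 in KO and 249.7 to 261 in WT libraries, and their part in the results at Mmp8 and Mmp9 was not tested. Of 4 monocyte marker genes, Ly6c2, Cx3cr1 and Itgam had a promoter peak in all libraries and Ccr2 in 1 of each genotype. Their summed scaled tags were 331 to 349 in KO and 218 to 301 in WT, without overlap. Scaled tags did not overlap at 16.2% of the single regions tested in the genome. Most of the tags in these sums were at Itgam (297, 290, 263 and 220 in KO and 197, 232, 263 and 171 in WT). The tags overlapped between the genotypes at Ly6c2 (11 to 20 in KO and 13 to 22 in WT) and Cx3cr1 (26 to 31 and 18 to 38). The sums overlapped between the genotypes for the AM list (972 to 1078 in KO and 990 to 1151 in WT), and for the markers of dendritic cells (116 to 150 and 108.8 to 137), epithelium (43.9 to 53.8 and 39.4 to 50.7), endothelium (127 to 177 and 117 to 156) and fibroblasts (62.6 to 120 and 71.5 to 98.1). In these last lists no library had a promoter peak at Xcr1, Sftpc, Nkx2-1, Cdh5, Tek or Col1a2. The endothelial sum came from Pecam1 alone. The epithelial sum came from Epcam and Cdh1, and the study counts Cdh1 among the AM-core genes.

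The sequences of some of the accessible starts and distal regions are shown first, since the members' promoters differ in the motifs they hold. The Timp2 and Mmp14 starts and the strongest regions of Mmp8 and Mmp19 are not among them. All are from the reference genome GRCm38, written 5′ to 3′ in the direction of the gene, and capitals mark matches to the motifs described after them. The windows at starts cover the 151 bp before the first base of the transcript.
Mmp8 promoter, chr9:7558305-7558455, plus strand: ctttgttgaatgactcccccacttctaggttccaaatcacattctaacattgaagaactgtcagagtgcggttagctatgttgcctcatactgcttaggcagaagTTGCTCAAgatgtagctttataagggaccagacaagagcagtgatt
Mmp12 first promoter, chr9:7344246-7344396, plus strand: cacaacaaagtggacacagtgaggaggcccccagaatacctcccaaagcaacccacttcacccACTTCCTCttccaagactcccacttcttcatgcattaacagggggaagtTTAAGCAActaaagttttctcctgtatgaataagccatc
Mmp12 second promoter, chr9:7347223-7347373, plus strand: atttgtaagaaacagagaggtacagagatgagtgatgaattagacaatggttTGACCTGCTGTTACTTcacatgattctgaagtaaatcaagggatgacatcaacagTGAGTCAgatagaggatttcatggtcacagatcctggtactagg
Mmp13 promoter, chr9:7272363-7272513, plus strand: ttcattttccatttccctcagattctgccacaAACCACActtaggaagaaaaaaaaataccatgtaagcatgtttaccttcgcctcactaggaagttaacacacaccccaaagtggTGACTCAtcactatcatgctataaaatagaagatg
Mmp19 promoter, chr10:128790759-128790909, plus strand: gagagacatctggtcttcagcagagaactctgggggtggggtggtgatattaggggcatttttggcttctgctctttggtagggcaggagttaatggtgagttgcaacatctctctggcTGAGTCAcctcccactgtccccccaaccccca
The windows at distal regions cover 75 bp on either side of the strongest summit.
Mmp9 region 5.14 kb upstream, chr2:164943006-164943156, plus strand: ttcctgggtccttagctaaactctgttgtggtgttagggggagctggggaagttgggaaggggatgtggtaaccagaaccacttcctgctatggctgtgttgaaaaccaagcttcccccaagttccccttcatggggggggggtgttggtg
Mmp12 region 7.49 kb upstream, chr9:7336828-7336978, plus strand: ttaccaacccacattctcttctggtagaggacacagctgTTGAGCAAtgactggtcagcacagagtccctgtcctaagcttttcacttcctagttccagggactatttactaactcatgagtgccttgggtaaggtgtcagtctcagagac
Mmp14 region 2.04 kb downstream, chr14:54433593-54433743, plus strand: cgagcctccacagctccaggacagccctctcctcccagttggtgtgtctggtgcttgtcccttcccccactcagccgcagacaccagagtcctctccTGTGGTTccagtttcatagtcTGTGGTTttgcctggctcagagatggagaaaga
Timp2 region 7.92 kb upstream, chr11:118363351-118363501, minus strand: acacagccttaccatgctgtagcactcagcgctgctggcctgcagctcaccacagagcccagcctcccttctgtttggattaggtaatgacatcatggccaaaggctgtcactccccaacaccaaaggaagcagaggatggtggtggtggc

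The AP-1 motif TGACTCA, read on both strands, stood in 3 of these promoters. It began 35 bp before the start of Mmp13, 32 bp before that of Mmp19 and 44 bp before the second start of Mmp12. Counted within 100 bp of the summit, it matched in 3 of the 7 regions at member starts, and not in those of Timp2 and Mmp14. The window of the second Mmp12 start also held a match to DR4, which was defined as 2 copies of AGGTCA with 4 bases between and at most 2 mismatches. The Mmp8 promoter and the first Mmp12 promoter held no AP-1 match in these 151 bp. Both held a match to the C/EBP motif TTGCNNAA, which began 46 bp before the Mmp8 start and 39 bp before the Mmp12 start, and the latter also held the PU.1 motif GAGGAAGT. The Mmp14 window held 2 copies of the RUNX motif TGTGGTT and the Mmp13 window 1 on the other strand, and those of Mmp9 and Timp2 none of the motifs.

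Within 100 bp of the summit, AP-1 matched in 8 of the 49 regions seen in 2 or more libraries (16.3%, against 9.47% of all 72711 such regions), 3 of them at Mmp12 and 3 at Mmp19. The C/EBP motif matched in 12 regions (24.5%, against 14.7% of all). DR1, the spacing of 1 base that RXR and PPARγ share, matched in none of the 49 with at most 2 mismatches, against 4.14% of all regions. DR4 matched in 2 (4.08%, against 2.63%), PU.1 in 6 (12.2%, against 10.7%), RUNX in 5 (10.2%, against 8.98%), the STAT5 motif TTCNNNGAA in 3 (6.12%, against 5.98%) and the RBPJ motif GTGGGAA in 2 (4.08%, against 5.10%). These shares are descriptions of letters and were not tested.

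The 8 genes differed in how open they were and in whether the open chromatin lay at their start. Of the 51 regions, 38 had a peak in all 8 libraries, 11 in 2 to 7 and 2 in 1 library. Counted over the 49 regions shared by libraries, 77.6% were present in all 8, against 65.3% of the 72711 in the genome. The start of a member lay within 1 kb of the summit in 7 regions, another gene's start in 10, and the other 34 were distal. Among the distal regions, 26 had a member as the nearest protein-coding start. The strength of a peak is given as the percentage of the peaks in its library with an equal or larger p-value, so that 100 is the strongest. It was averaged over the libraries that had a peak in the region.

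**Figure D1:**
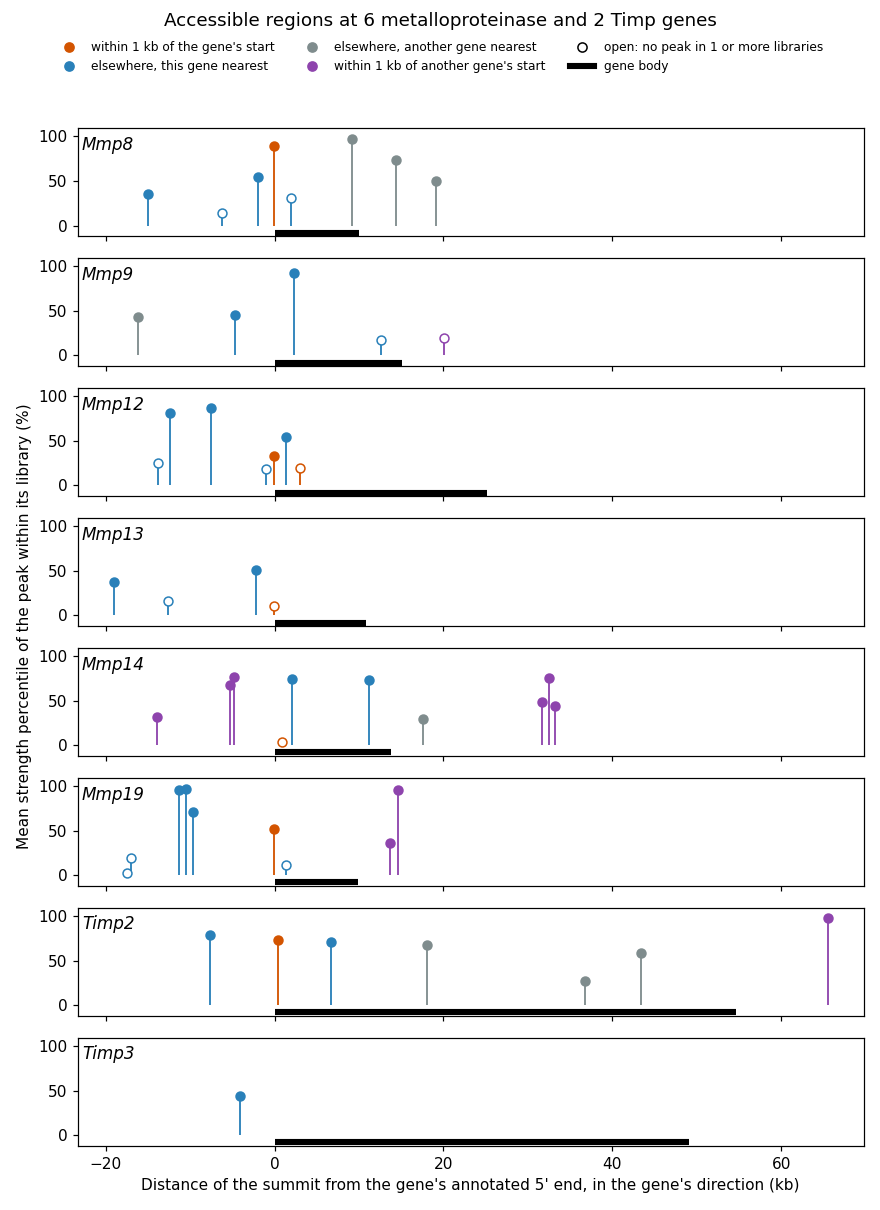
Each panel is 1 gene, the x axis gives the distance of a region's summit from the annotated 5′ end of the gene in kb, the y axis its mean strength percentile, and open points lacked a peak in 1 or more libraries. The promoter of Mmp8 reached a percentile of 89.2, that of Mmp13 10.6, and Mmp9 and Timp3 had no summit within 1 kb of the start of a coding transcript.

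Mmp8, the neutrophil collagenase, had the most accessible start of the 6 metalloproteinases. The study counts Mmp8 among the AM-core genes, with expression that rose as recruited monocytes became AMs. The Mmp8 gene (ENSMUSG00000005800, chr9:7558456-7568485) had 8 regions, 6 of them in all libraries. The promoter region (chr9:7558137-7558592) held 184, 174, 145 and 170 summit tags in KO and 209, 214, 196 and 142 in WT, in the order in which the replicates were listed above. The ranges overlapped, and after scaling by the median over all regions present in every library the means were 181 ± 15.97 (SD, n = 4) in KO and 175 ± 20.2 in WT. The log2 difference, KO minus WT, was 0.05 (95% interval −0.14 to 0.24, adjusted p = 0.784 by limma).

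The strongest region of Mmp8 lay at the other end of the gene, 9.12 kb after the start and in the 3′ UTR of the last exon (chr9:7567219-7567792). It held 271, 246, 227 and 241 tags in KO and 306, 339, 303 and 207 in WT, a percentile of 96.7. The libraries of the genotypes were interleaved, and the log2 difference was 0.01 (−0.16 to 0.17). Next to it, in an intron of Mmp27, another metalloproteinase gene, the region 14.43 kb downstream of the Mmp8 start held 84, 90, 87 and 87 tags in KO and 72, 123, 95 and 62 in WT. Its difference was 0.25 (0.00 to 0.49), with an unadjusted p of 0.049 and an adjusted p of 0.189. A region in a Mmp8 intron, 1.89 kb after the start, had a peak in 3 KO and 3 WT libraries with 31 to 63 tags, and none in KO replicate 3 and WT replicate 4.

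Mmp12, macrophage elastase, lay in the same cluster of metalloproteinase genes on chromosome 9 (ENSMUSG00000049723, chr9:7344381-7369499), and its accessibility was mainly upstream. All 7 of its regions had Mmp12 as the nearest coding start. The region 7.49 kb upstream (chr9:7336706-7337531) held 175, 201, 168 and 179 tags in KO and 192, 249, 158 and 139 in WT. Its scaled mean was 195 ± 16.6 in KO and 168 ± 20.8 in WT, with overlapping ranges. The difference of 0.22 (0.03 to 0.41) had an unadjusted p of 0.027 and an adjusted p of 0.129, so it did not pass. The region 12.38 kb upstream was of similar strength and held 118 to 151 tags in KO and 99 to 189 in WT, with a difference of 0.08 (−0.12 to 0.28).

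The starts of Mmp12 were far weaker than these upstream regions. The first held 31, 41, 22 and 30 tags in KO and 30, 53, 37 and 20 in WT, and the log2 difference was 0.09 (−0.29 to 0.48). The second start, used by the shorter transcripts and marked by the AP-1 match shown above, had a peak in 4 KO libraries with 32, 30, 19 and 26 tags and in 3 WT libraries with 22, 27 and 23, and none in WT replicate 4. The region 13.81 kb upstream also carried an AP-1 match. It had a peak in all KO libraries, with 26, 38, 32 and 29 tags, and in WT replicates 1_2 and 1_3, with 35 and 40. WT replicates 3 and 4 had no peak there, the largest gap in occupancy between the genotypes at any of the 8 genes together with that of 2 other regions (6.28 kb upstream of Mmp8 and 12.57 kb after the Mmp9 start), each with 2 libraries more in WT.

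Mmp13, collagenase-3, was the least accessible member of this cluster (ENSMUSG00000050578, chr9:7272514-7283331). Its promoter region (chr9:7272300-7272621) held 13, 13 and 15 tags in the 3 KO libraries with a peak and 14, 16 and 10 in the 3 WT libraries with one. KO replicate 1_2 and WT replicate 4 lacked it. These summits were close to the smallest that the lists hold, so a small difference or a loss could go unseen at this depth. The size of difference that could be seen was not tested. The strongest region, 2.24 kb upstream, held 35, 29, 43 and 25 tags in KO and 42, 44, 31 and 25 in WT, with a difference of 0.12 (−0.26 to 0.49). The region 19.05 kb upstream had the lowest difference of the 38 tested, −0.20 (−0.61 to 0.21, adjusted p = 0.572).

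Apart from Mmp27, the remaining genes of this chromosome 9 cluster had few regions. Mmp1b had no region, Mmp1a, Mmp3 and Mmp7 had 1 region each and in 1 library only, Mmp20 had 1 and Mmp10 had 2, of which 1 was in all libraries. Mmp27 had 8 regions in its window, 6 of them in all libraries, and that window overlaps the one of Mmp8. Of these 8, 7 were also counted as regions of Mmp8, among them the Mmp8 promoter. The shared regions 9.12, 14.43 and 19.15 kb after the Mmp8 start are nearer to the start of Mmp27.

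Mmp9, gelatinase B, was accessible inside its locus but not at its start (ENSMUSG00000017737, chr2:164940780-164955850). No library had a summit within 1 kb of the coding transcript's start at chr2:164948219. The strongest region (chr2:164942807-164943354) lay 5.14 kb upstream of that start, in an intron of a longer annotated transcript. It held 197, 204, 153 and 179 tags in KO and 206, 237, 246 and 171 in WT. The scaled means of 197 ± 17.5 and 198 ± 20.2 differed by less than the spread between replicates (log2 difference −0.01, −0.19 to 0.17). The other 2 regions of Mmp9 in all libraries held 18 to 45 tags. A region in a coding exon had a peak in 3 libraries of each genotype.

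Mmp14, the membrane-type enzyme that activates pro-MMP2 together with TIMP2, had 10 regions, of which 9 were in all libraries (ENSMUSG00000000957, chr14:54431612-54445364). Of these 10, 6 lay within 1 kb of the starts of neighbouring genes, and the strongest of all was at the Mrpl52 start 4.81 kb away, with a log2 difference of 0.01 (−0.22 to 0.23). Near the start of Mmp14 itself, a summit was called only in KO replicate 1_2 and WT replicate 1_2, with 18 tags in each. The intronic region 2.04 kb downstream, which holds the RUNX copies shown above, was the strongest with Mmp14 as the nearest gene. It held 84, 75, 73 and 79 tags in KO and 84, 101, 83 and 80 in WT, a difference of 0.06 (−0.19 to 0.30). The intronic region 11.14 kb downstream varied most within a genotype, with 92, 129, 58 and 49 tags in KO and 75, 127, 82 and 66 in WT, and its difference was 0.06 (−0.25 to 0.37).

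Mmp19, an enzyme of basement membrane turnover, had the strongest upstream regions (ENSMUSG00000025355, chr10:128790910-128800824). A group of 3 regions lay 9.66 to 11.28 kb before its start. The middle region (chr10:128780146-128780703) held 422, 377, 333 and 322 tags in KO and 453, 501, 410 and 325 in WT, and the log2 difference was 0.01 (−0.15 to 0.16). The outer region, 11.28 kb upstream, held 382, 405, 311 and 330 tags in KO and 350, 406, 406 and 297 in WT. Its difference was 0.19 (0.03 to 0.34), with an unadjusted p of 0.022 and an adjusted p of 0.112. The inner region differed by −0.00 (−0.20 to 0.20).

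The Mmp19 promoter, which holds an AP-1 match, was the only one of the 38 tested regions whose scaled tags did not overlap between the genotypes, against 16.2% of all regions tested in the genome. It held 51, 41, 40 and 44 tags in KO and 38, 46, 36 and 31 in WT, which after scaling became 50.8, 41.4, 45.1 and 52.2 against 36.8, 34.3, 33.0 and 34.9. Every KO library was above every WT library on that scale. The means were 47.4 ± 5.01 and 34.7 ± 1.58, and the difference of 0.44 (0.11 to 0.77) was the largest at the 8 genes, yet it did not pass the adjusted test (unadjusted p = 0.009, adjusted p = 0.064 by limma).

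**Figure D2:**
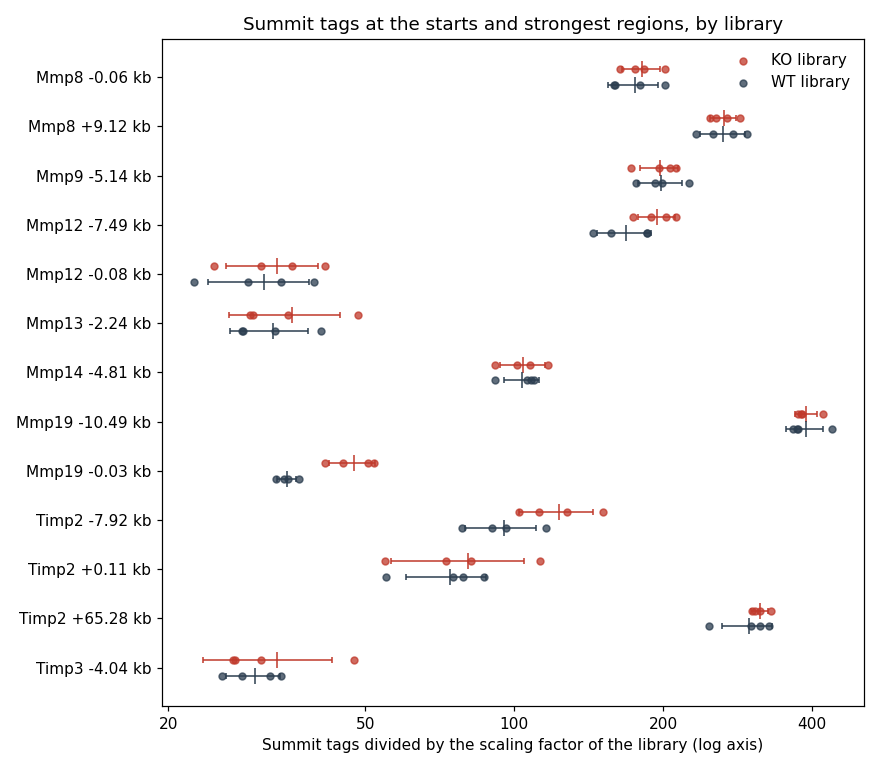
Summit tags of each library divided by the scaling factor of the library, on a log axis, at the starts and the strongest regions that had a peak in all libraries, with the mean and SD per genotype (n = 4). KO and WT points overlap in every row except the Mmp19 promoter, labelled −0.03 kb.

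Timp2 encodes an inhibitor of secreted and membrane-bound metalloproteinases (ENSMUSG00000017466, chr11:118301069-118355740, minus strand), and all 7 of its regions had a peak in every library. The region 7.92 kb upstream (chr11:118362913-118363623) was the only member region that passed the test. It held 103, 111, 134 and 108 tags in KO and 81, 121, 105 and 103 in WT. After scaling these became 102.5, 112.1, 151 and 128.1 in KO and 78.3, 90.2, 96.1 and 116.1 in WT, so that the highest WT library stood above 2 of the KO libraries. The scaled mean was 123 ± 21.2 in KO and 95.2 ± 15.8 in WT, a log2 difference of 0.37 ± 0.12 (SE), with an interval of 0.13 to 0.61 and an adjusted p of 0.030 by limma.

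This call depended on individual libraries. Without KO replicate 2 the difference was 0.27 (adjusted p = 0.178), and without KO replicate 3 it was 0.35 (0.086). It was 0.29 (adjusted p = 0.146) without WT replicate 1_2, 0.35 (0.068) without WT replicate 1_3 and 0.38 (0.054) without WT replicate 3. With libraries scaled by their background tags it was 0.32 (adjusted p = 0.372), and with replicates 1_2 and 1_3 counted as 1 sample 0.38 (0.054). The direction was the same in all 15 alternatives and the call held in 8 of them.

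The difference was positive in all 7 Timp2 regions, with a median of 0.26. The intronic region 6.44 kb after the start held 68, 70, 65 and 73 tags in KO and 51, 55, 83 and 60 in WT, a difference of 0.39 (0.08 to 0.69, adjusted p = 0.086). The region 17.79 kb after the start, in an intron that also belongs to Cep295nl, differed by 0.33 (0.01 to 0.64, adjusted p = 0.168). The Timp2 promoter held 55, 72, 100 and 69 tags in KO and 57, 101, 95 and 70 in WT. These overlapped, and the difference was 0.09 (−0.21 to 0.40). The strongest region of the window belonged to the start of Usp36, 65.28 kb away, where the difference was 0.08 (−0.08 to 0.25).

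Timp3, whose product is bound to the matrix and also inhibits ADAM proteases, lies inside an intron of Syn3 (ENSMUSG00000020044, chr10:86300372-86349506) and had 1 region. It lay 4.04 kb upstream (chr10:86295759-86296512) and held 31, 27, 24 and 40 tags in KO and 35, 43, 28 and 25 in WT. The difference was 0.12 (−0.26 to 0.50). The start of Timp3 had no peak in any library.

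**Figure D3:**
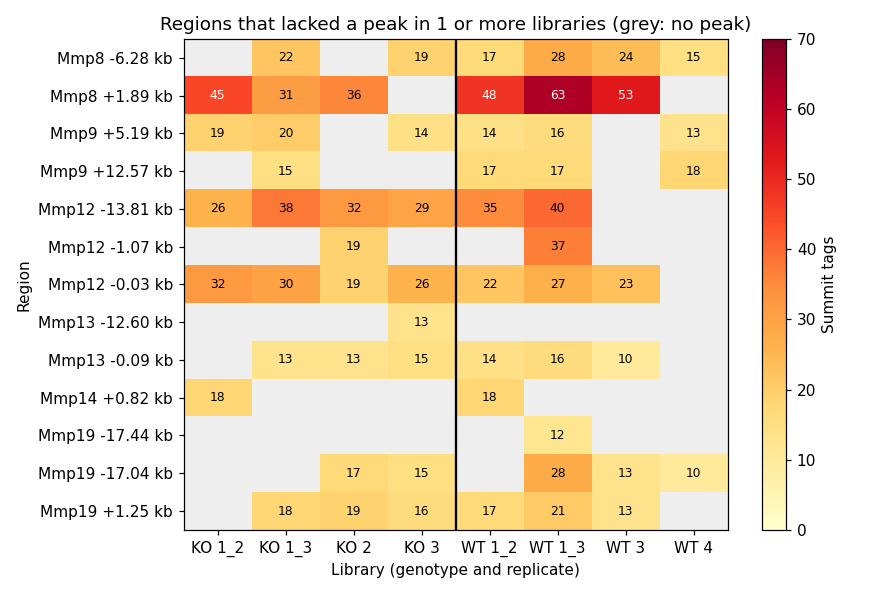
Summit tags in each library at the 13 regions that lacked a peak in 1 or more libraries, with grey cells for no peak and a line between the KO and the WT libraries. The tags run from 10 to 63, and every one of the 13 regions except those seen in 1 library had a peak in both genotypes.

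None of the 51 regions was genotype-specific, that is, had a peak in all 4 libraries of a genotype and in none of the other. In the genome, 0.285% of the 72711 regions were KO-only and 0.82% WT-only by this rule, so a count of 0 in 49 is near the background. The 11 regions present in 2 to 7 libraries were missed most often by WT replicate 4 (7 of 11) and KO replicate 1_2 (6 of 11), and least often by WT replicate 1_3 (1 of 11), the library with the most peaks. Their mean percentiles did not exceed 30.9, while the 38 regions in all libraries had a median of 67.8. The 2 groups overlapped, since the Timp2 region 36.52 kb after the start, present in all libraries, had a percentile of 26.9.

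Over the 38 tested regions, 1 passed the test with more tags in KO and none with fewer. In the genome, limma called 5.81% of 47499 regions higher and 7.03% lower in KO, together 12.8%, and with background tag scaling it called 575 higher and 1988 lower. At an unadjusted p under 0.05, 7 member regions passed, all higher in KO (18.4%, against 26.2% of all tested in either direction). They were the regions of Mmp8 (14.43 kb downstream), Mmp12 (7.49 kb upstream), Mmp19 (11.28 kb upstream and the promoter) and Timp2 (7.92 kb upstream and 6.44 and 17.79 kb downstream). The median difference of the 38 was 0.09, against 0.04 for all regions, and 32 of the 38 were positive (84.2%, against 57.6% of all). This count includes neighbouring regions of the same gene, and small differences change sign with the scaling. With background tag scaling the median of all regions was −0.013, and the Mmp8 promoter moved from 0.050 to −0.006. The summed scaled tags at the monocyte marker promoters, most of them at Itgam, were also higher in every KO library than in every WT library. Those at Ly6c2 and Cx3cr1 overlapped between the genotypes. The part of these marker genes in the differences at the 38 regions was not tested. All 38 intervals lay within a log2 difference of 1 in either direction, with outermost bounds of −0.61 and 0.77.

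**Figure D4:**
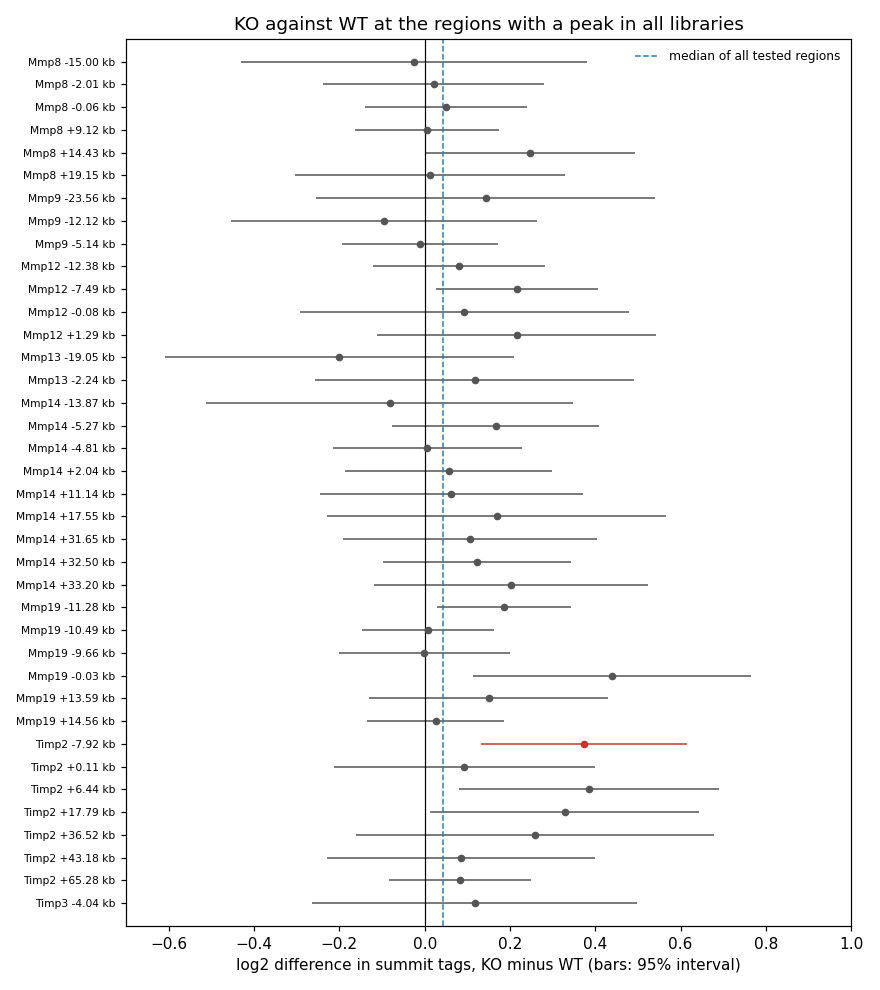
The log2 difference in summit tags, KO minus WT, of each of the 38 regions with its 95% interval from limma, with the called Timp2 region in red and the median of all 47499 regions as a dashed line at 0.04. Most intervals cross 0, and the values run from −0.20 to 0.44.

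The other genes of the family and of related proteases were taken as a list of 31 genes, with Timp1, Timp4, the inhibitor Reck, the inducer Bsg and several ADAM and ADAMTS proteases. Their windows held 140 regions that no member shared, 77 of them tested. Of these, 6 were higher (7.79%, background 5.81%) and 2 lower in KO (2.60%, background 7.03%), and 1 was KO-only. All 6 that were higher lay in the windows of Mmp2 or Adam8.

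Mmp2, gelatinase A, is the enzyme whose proform MMP14 and TIMP2 bind. Its KO-only region, 4.76 kb upstream (chr8:92822406-92822692), held 28, 27, 21 and 23 tags in the KO libraries, and no WT library had a peak there. The intronic region 12.75 kb downstream held 98, 103, 79 and 67 tags in KO and 48, 69, 45 and 37 in WT. Scaled, the means were 92.5 ± 10.7 and 45.2 ± 4.78 without overlap, a log2 difference of 1.03 ± 0.14 (SE, adjusted p = 2.57e-07 by limma). A region in the last part of the gene, 25.99 kb after the start, differed by 0.65 ± 0.11 (adjusted p = 2.45e-05). It lies nearer to the start of Lpcat2, 2.06 kb away, than to that of Mmp2. Both calls held in all 15 alternatives. The Mmp2 regions 8.94 kb upstream and 27.61 kb after the start did not pass, with differences of 0.30 (adjusted p = 0.137 by limma) and 0.09. Over all tested regions of each window, which include starts of other genes, the differences were −0.08 to 0.20 at Mmp14. They were 0.08 to 0.39 at Timp2 and 0.09 to 1.03 at Mmp2. The difference between these genes was not tested.

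Adam8 encodes a membrane-anchored metalloprotease of leukocytes. Its strongest change was 20.92 kb after the start, where the KO libraries held 106, 112, 105 and 96 tags and the WT libraries 55, 62, 38 and 39 (log2 difference 1.35 ± 0.13, adjusted p = 2.05e-10). The other 3 called regions of its window differed by 0.32 to 0.54, and all 4 lie nearer to the start of 6430531B16Rik than to that of Adam8. With background tag scaling these 3 no longer passed, and the smallest of them, 7.87 kb after the start, was also lost without KO replicate 1_2 (0.27, adjusted p = 0.070) or KO replicate 2 (0.29, adjusted p = 0.051). The regions lower in KO lay 18.88 kb from the Adam15 start (−0.48 ± 0.15, adjusted p = 0.021) and in an intron of Adam19 (−0.64 ± 0.17, adjusted p = 0.008). The Adam15 call was lost with background tag scaling (adjusted p = 0.079) and without KO replicate 1_3 (adjusted p = 0.090), KO replicate 2 (0.081) or WT replicate 4 (0.062).

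**Figure D5:**
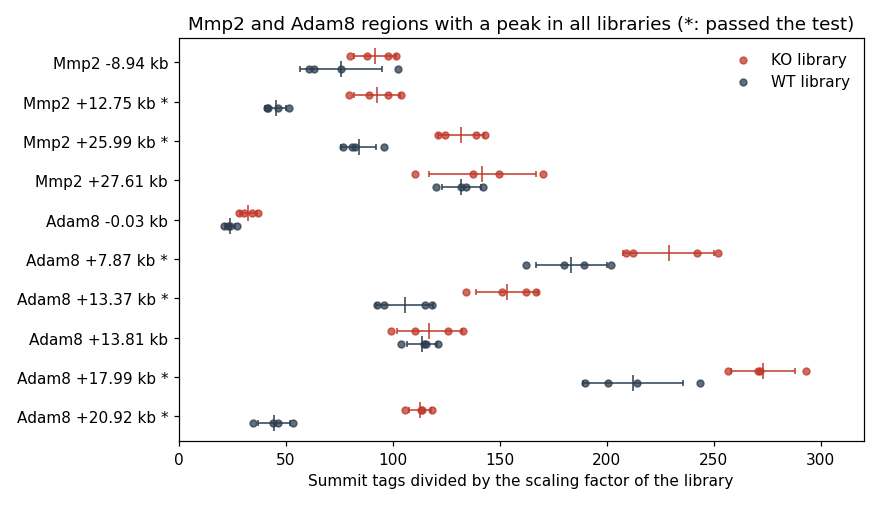
Scaled summit tags per library at the Mmp2 and Adam8 regions with a peak in all libraries, with the mean and SD per genotype (n = 4) and an asterisk for regions that passed the limma test. All KO libraries lie above all WT libraries at the Mmp2 regions 12.75 and 25.99 kb after the start. The same holds at the Adam8 regions 7.87, 13.37, 17.99 and 20.92 kb after the start. It also holds at the Adam8 promoter, labelled −0.03 kb, which did not pass (adjusted p = 0.111 by limma). Of all regions tested in the genome, 16.2% do not overlap in either direction.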

How the data were processed

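ATAC-seq was measured in 4 KO and 4 WT libraries, grouped by the genotype in the labels. The members and lists were chosen with earlier results of these data known. According to the study's methods and the processing notes, reads were trimmed with cutadapt, aligned to mm10 with Bowtie2, filtered with SAMtools, and peaks were called for each library with MACS3, so a missing peak means only that its threshold was not reached. Each deposited list gives a score (a rounded display value, not used), the authors' fold enrichment (a ratio of summit tags to local background, each with 1 added), −log10 p and −log10 q values and the summit position. Whole tags were recovered from the deposited fold and −log10 p-value for 100.0% of peaks in every library, within a relative error of 1e-05.

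Peaks sharing at least 1 bp were merged, and genes were those of GENCODE M21 on the same build. Summit tags, log2 transformed with a pseudocount of 0.5 and centred on the library medians, were tested with limma 3.58.1 (R 4.3.3, trend, 2-sided) over all 47499 regions with a peak in every library, with Benjamini-Hochberg adjustment at 0.05. Regions lacking a peak in any library were compared by occupancy only. Fold changes are on the log2(tags + 0.5) scale. The authors' read counts were not used here, and a count model was not fitted. The test was checked on simulated tags. Regions were named if they lay within 1 kb of a member start, were the strongest of their gene, passed the test or differed by at least 3 libraries in occupancy, and others are named to describe a gene and were chosen after their values were seen. Motifs were matched on both strands of GRCm38. Alternatives were background tag and quantile scaling, a pseudocount of 1, a mean of at least 20 tags, the summit nearest the strongest, each library left out, replicates 1_2 and 1_3 as 1 sample, a replicate block, a flank of 5 kb, q-values of 1e-05 or less and lists of equal length. Depth sets the smallest summit that can be called.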

Additional observations from a re-analysis of the deposited data

Results flagged for a closer look

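The Mmp19 region 10.49 kb upstream had a library apart from the other 3 in both genotypes. In KO, replicate 1_2 held 420 scaled tags and the other 3 libraries 375 to 382, a gap of 0.846 of the range on the log2 scale. In WT, replicate 1_2 held 438 and the others 366 to 375, a gap of 0.866 of the range on that scale. Both gaps passed Dixon's limit for 4 samples, and 42 sets of 4 libraries were examined, of which chance marks about 1 in 20.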

How the results depend on the processing

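No region of the 8 genes was genotype-specific under any alternative, with each library left out (0 throughout), at q-values of 1e-05 or less, with lists of equal length, with summits within 250 bp, with replicates 1_2 and 1_3 as 1 sample, with a flank of 5 kb or with 1 library allowed to depart. A flank of 5 kb left 30 of the 51 regions, and 50 remained at q-values of 1e-05 or less. The count of member regions that differed in summit tags was 1, and it was 0 with background tag scaling, with replicates 1_2 and 1_3 as 1 sample and with a flank of 5 kb, which leaves out the Timp2 region. It ran from 0 to 2 with each library left out. The cause was not tested. Whether the replicate numbers pair the libraries was not settled. Between libraries of the same number r was 0.056, 0.116 and 0.037, low but above that of every other KO and WT pair (−0.067 to 0.032). With a replicate block the count was 4, all higher in KO. The block also ended the calls at the Adam8 region 7.87 kb after the start (0.23, adjusted p = 0.065 by limma) and at Adam15 (−0.35, adjusted p = 0.117). Of 315 alternative values of the named regions, 34 changed sign. These include the Mmp13 region 2.24 kb upstream with the replicate block (−0.10), the Mmp19 region 10.49 kb upstream with quantile normalisation (−0.072), and, with each library left out, the Timp2 promoter (−0.084, without KO replicate 2, to 0.26) and the Usp36 start near Timp2 (−0.0031, without WT replicate 1_3, to 0.13). None of these was called. A call was lost in 18 of the 315, at the Timp2 region 7.92 kb upstream, at 3 of the Adam8 regions or at Adam15. In the genome, background tag scaling called 575 regions higher and 1988 lower in KO, against 2759 and 3337, and the replicate block 3600 and 3283. Depth limits what can be said at summits near the 6 to 9 tags that the lists start from, such as the Mmp13 start. The Mmp14 start, with 18 tags in each of the 2 libraries with a peak, was also weak (mean percentile 3.66).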
